A study of Arabidopsis thaliana with 6 samples.

Results

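The 10 genes described here act in the making and working of stomata, the pores of the plant epidermis. They were listed by locus, and all 10 were found among the 32833 loci of the deposited counts: SPCH (AT5G53210), MUTE (AT3G06120), FAMA (AT3G24140), SCRM (AT3G26744), TMM (AT1G80080), EPF2 (AT1G34245), EPF1 (AT2G20875), ER (AT2G26330), BASL (AT5G60880) and KAT1 (AT5G46240). RNA came from whole seedlings of Arabidopsis thaliana, genotype Columbia. The ethylene group had 3 libraries of seedlings germinated on agar for 3 d in darkness with 0.7 ppm ethylene, then kept for 5 d in light and without the gas. The air group had 3 libraries handled alike but with no ethylene in the dark phase. The comparison asks what still differed in these 8-day-old seedlings once the ethylene had been gone for 5 d.

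A stoma forms from a young epidermal cell that divides asymmetrically, passes through a meristemoid and a guard mother cell, and ends as a pair of guard cells. Related bHLH transcription factors act one after the other: SPCH starts the asymmetric divisions, MUTE ends them, and FAMA closes the last division and fixes guard cell fate, each paired with SCRM or its relative SCRM2. Secreted EPF peptides, the receptor kinases of the ERECTA family and the receptor-like protein TMM keep stomata apart, partly through a MAP kinase cascade that acts on SPCH. BASL marks one side of the dividing cell, and KAT1 is an inward potassium channel of the mature guard cell.

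After ethylene, transcripts of the receptor kinase gene ER and of the potassium channel gene KAT1 were higher, and the other members did not pass the test. ER rose 1.49-fold (95% interval 1.29 to 1.72) and KAT1 1.81-fold (1.33 to 2.47). SPCH lay higher in all 3 ethylene libraries but missed the threshold, at 1.49-fold (1.04 to 2.13). Within a library, FAMA and MUTE counts relative to SPCH were lower in each ethylene library than in any air library. KAT1 relative to FAMA was higher. These ratios were chosen after the levels were seen, and the groups did not overlap in 6 of the 11 taken, beside 47.7% of single loci. No ratio could have passed an exact permutation test with 3 libraries against 3, so that test decides nothing here. Of the 9 members tested, 2 were called higher and 0 lower by edgeR's quasi-likelihood test at a Benjamini-Hochberg (BH) adjusted p under 0.05. Over all loci tested, 15.8% were called higher and 16.8% lower. At an unadjusted p under 0.05 the members gave 3 higher and 0 lower, and DESeq2 called 2 higher and 0 lower. The median log2 fold change was 0.29 over the 9 members and 0.02 over all 17887 loci tested. BASL was too scarce to test. The groups did not overlap in 3 members with ethylene higher and 1 with ethylene lower, beside 47.7% of all loci tested, 23.9% with ethylene higher and 23.8% lower.

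Plant counts ranged from 12870604 to 17116359 per library, so 1 count corresponded to between 0.0584 and 0.0777 CPM (reads of a locus scaled to a common library total) before scaling with TMM factors. Levels below carry these factors, which take the bulk of loci as unchanged. TMM here is the trimmed mean of M-values, and this scale is always called the TMM scale, while TMM alone is the receptor-like protein gene. On the first principal component of log2 CPM, which carried 64.7% of the variance, air replicate 3 lay farther out (74.74) than the other air libraries (27.33 and 37.30), so the values that move with it by over 1.5 times are given without it as well. Air replicates 1 and 3 carry each other's column names in the authors' deposited table, which leaves the group comparison as it is. Nothing in the labels says that replicates were grown separately, so the spread behind each p-value may be purely technical. The labelled tissue was matched by the markers, since transcripts of leaf, epidermis and root were all present: RBCS1A, a small subunit gene of Rubisco, averaged 8320 ± 946 CPM after ethylene and 9760 ± 534 CPM in air, and PYK10, a beta-glucosidase gene of roots, 5790 ± 519 and 5700 ± 881 CPM (SD, n = 3 each). In whole seedlings, fewer cells of a type and less RNA per cell cannot be told apart.

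The scaling sets the zero of every change. Counts of synthetic spike-in RNAs were 1.54%, 1.69% and 2.02% of the plant counts in ethylene replicates 1 to 3, and 2.02%, 2.28% and 2.07% in air replicates 1 to 3. The highest ethylene library reached the lowest air library, and the mean log2 difference was -0.29, or -0.45 against TMM-scaled library sizes. With library sizes set from the spike-ins, the log2 fold change at the median locus moved to 0.47, and 40.0% of loci were called higher and 4.63% lower. There 6 of the 9 members were called higher and 0 lower: SPCH, TMM, EPF2, EPF1, ER and KAT1. The sources used here do not give the step at which these RNAs were added.

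**Figure D1:**
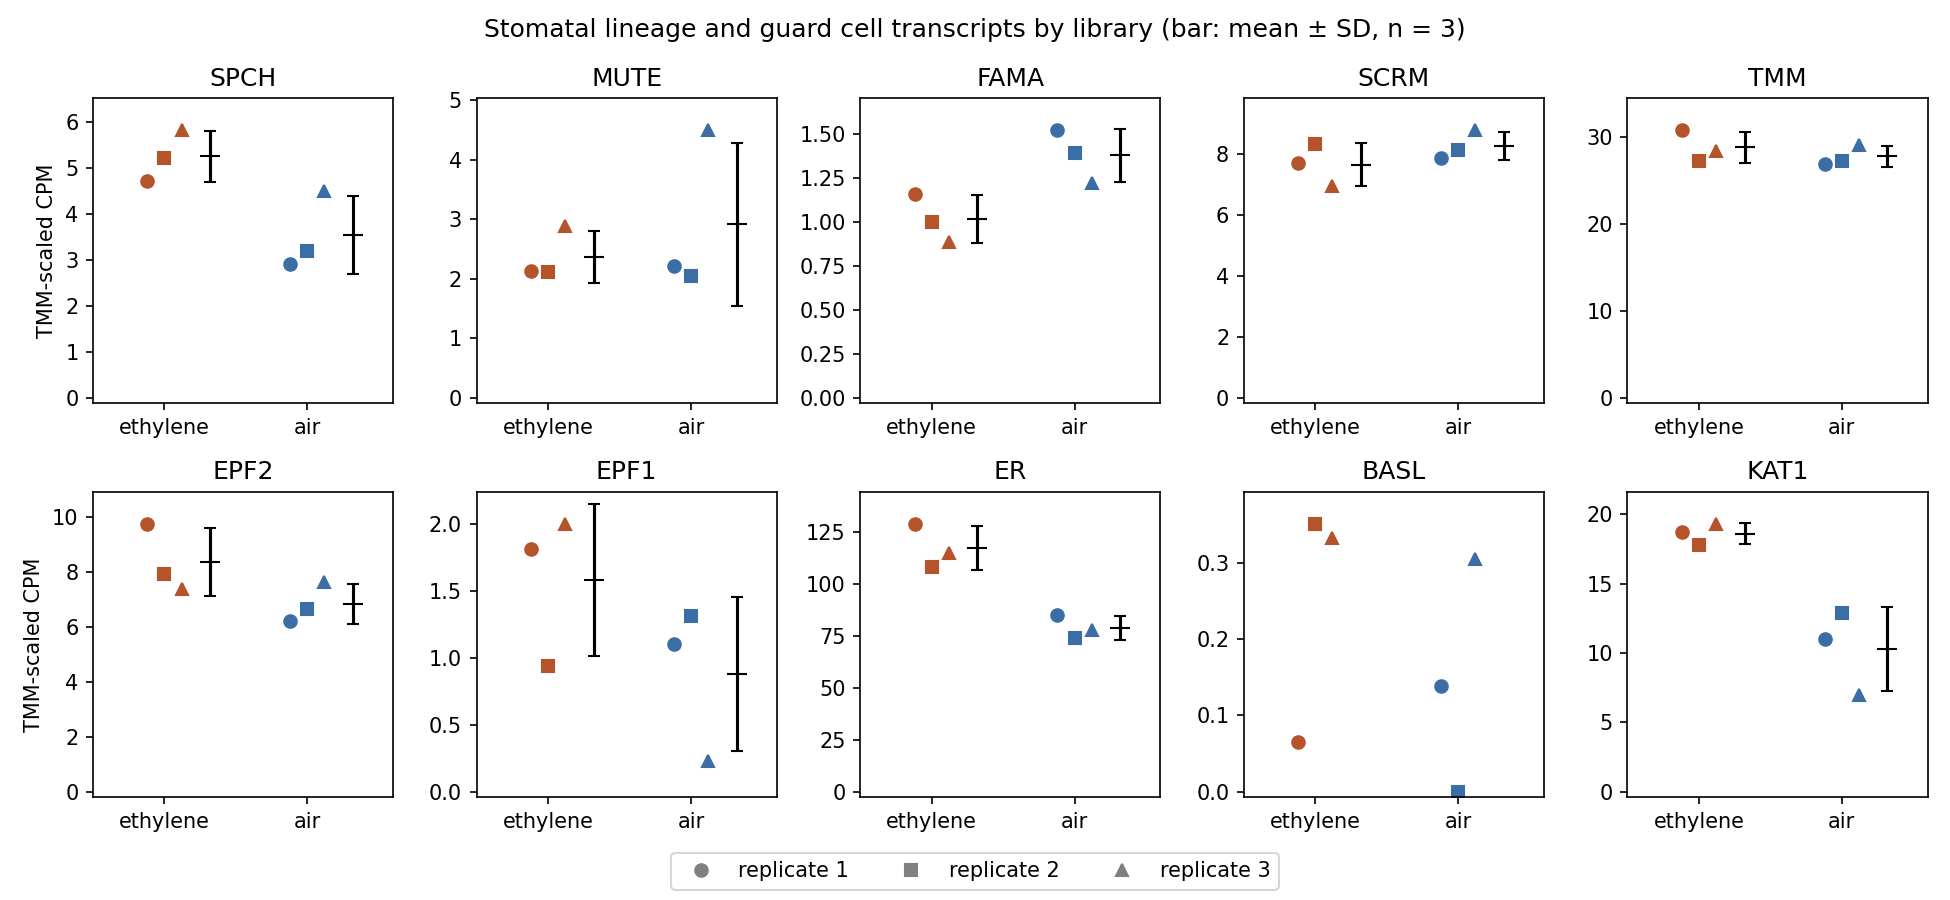
TMM-scaled CPM of the 10 genes in each ethylene library (left) and air library (right), with the replicate number shown by the symbol and the mean ± SD (n = 3) as a black bar; BASL, with at most 6 counts per library, has no bar. The ethylene libraries of ER (108 to 129 CPM) and KAT1 (17.8 to 19.3 CPM) lie above all air libraries, and those of FAMA lie below them.

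SPCH, which opens the lineage, had 4.71, 5.21 and 5.82 CPM in ethylene replicates 1 to 3, against 2.90, 3.20 and 4.50 CPM in air replicates 1 to 3. The lowest ethylene library was just above the highest air library, air replicate 3. The log2 fold change was 0.57 ± 0.23 (SE, n = 3 per group; edgeR adjusted p = 0.0861 with BH). Without air replicate 3 it was 0.77 and passed (edgeR adjusted p = 0.0385 with BH), while leaving out any one of the other libraries gave adjusted p from 0.105 to 0.279. With spike-in scaling it was 1.01 and passed (edgeR adjusted p = 0.00284 with BH).

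MUTE, which moves the cell on to the guard mother cell, had 2.13, 2.11 and 2.88 CPM after ethylene, against 2.21, 2.05 and 4.50 CPM in air. The groups overlapped, and air replicate 3 stood above all other libraries. The log2 fold change of -0.29 ± 0.34 was not called (edgeR adjusted p = 0.559 with BH), and it was 0.15 without air replicate 3 and 0.13 with spike-in scaling. The 95% interval, from 0.479-fold to 1.39-fold, leaves room for a change in either direction.

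FAMA, which ends division in the lineage, had 1.16, 0.996 and 0.887 CPM after ethylene, against 1.52, 1.39 and 1.22 CPM in air. All 3 ethylene libraries lay below all 3 air libraries, but these levels rest on 16 to 18 counts per ethylene library and 16 to 22 per air library. The log2 fold change was -0.44 ± 0.34 (edgeR adjusted p = 0.364 with BH) and became 0.01 with spike-in scaling. The interval ran from 0.433-fold to 1.25-fold, so a change of this size was not detectable at this depth.

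SCRM, the shared partner of the 3 factors above and also known as ICE1 for its part in cold responses, had 7.68, 8.32 and 6.93 CPM after ethylene, against 7.86, 8.11 and 8.77 CPM in air. The groups overlapped. The log2 fold change was -0.11 ± 0.16 (edgeR adjusted p = 0.648 with BH), with an interval from 0.721-fold to 1.19-fold, and 0.35 and not called with spike-in scaling.

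BASL, the polarity gene, had 1, 6 and 6 counts after ethylene and 2, 0 and 4 in air. Its 13 and 6 counts in all were too few for the filter on low counts, and no change was tested.

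EPF2, the peptide gene that limits entry into the lineage, had 9.74, 7.91 and 7.37 CPM after ethylene, against 6.21, 6.64 and 7.62 CPM in air. Air replicate 3 reached into the ethylene range, and the log2 fold change of 0.29 ± 0.18 was not called (edgeR adjusted p = 0.261 with BH). Without ethylene replicate 1 it was 0.16. EPF1, whose peptide orients later divisions and spaces the stomata, had 1.81, 0.937 and 2.00 CPM after ethylene, against 1.10, 1.31 and 0.229 CPM in air. The lowest value, in air replicate 3, rests on 3 counts. Its log2 fold change was 0.84 ± 0.54 (edgeR adjusted p = 0.270 with BH) and 0.38 without air replicate 3. Both peptide genes were called with spike-in scaling, at log2 fold changes of 0.76 for EPF2 and 1.28 for EPF1 (edgeR adjusted p = 0.0110 and 0.0244 with BH).

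TMM, the receptor-like protein without a kinase domain that works with the ERECTA family, had 30.8, 27.3 and 28.4 CPM after ethylene, against 26.9, 27.3 and 29.1 CPM in air. The groups were interleaved. The log2 fold change was 0.05 ± 0.10 (edgeR adjusted p = 0.727 with BH), and the interval from 0.887-fold to 1.21-fold is the narrowest among the members that were not called. With spike-in scaling TMM was called, at 0.51 (edgeR adjusted p = 0.0279 with BH), close to the shift of all loci on that scale.

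ER encodes ERECTA, a receptor kinase that reads EPF-type peptides and also acts in stem and organ growth. It had 129, 108 and 115 CPM after ethylene, against 85.3, 73.8 and 77.8 CPM in air. Each ethylene library was well above each air library, and the counts, from 901 to 2082 per library, leave little counting noise. ER rose by 0.57 ± 0.09 on the log2 scale (edgeR adjusted p = 0.00132 with BH). The call held in each of the 13 alternatives run, with log2 fold changes from 0.50 to 1.03.

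KAT1, the potassium channel gene, had 18.7, 17.8 and 19.3 CPM after ethylene, against 11.0, 12.9 and 6.94 CPM in air. The ethylene libraries were close together, whereas the air libraries were spread out, with air replicate 3 lowest. KAT1 rose by 0.86 ± 0.20 (edgeR adjusted p = 0.00906 with BH). Without air replicate 3 the rise was 0.63 and still called (edgeR adjusted p = 0.0104 with BH), and over all 13 alternatives it ranged from 0.63 to 1.31.

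**Figure D2:**
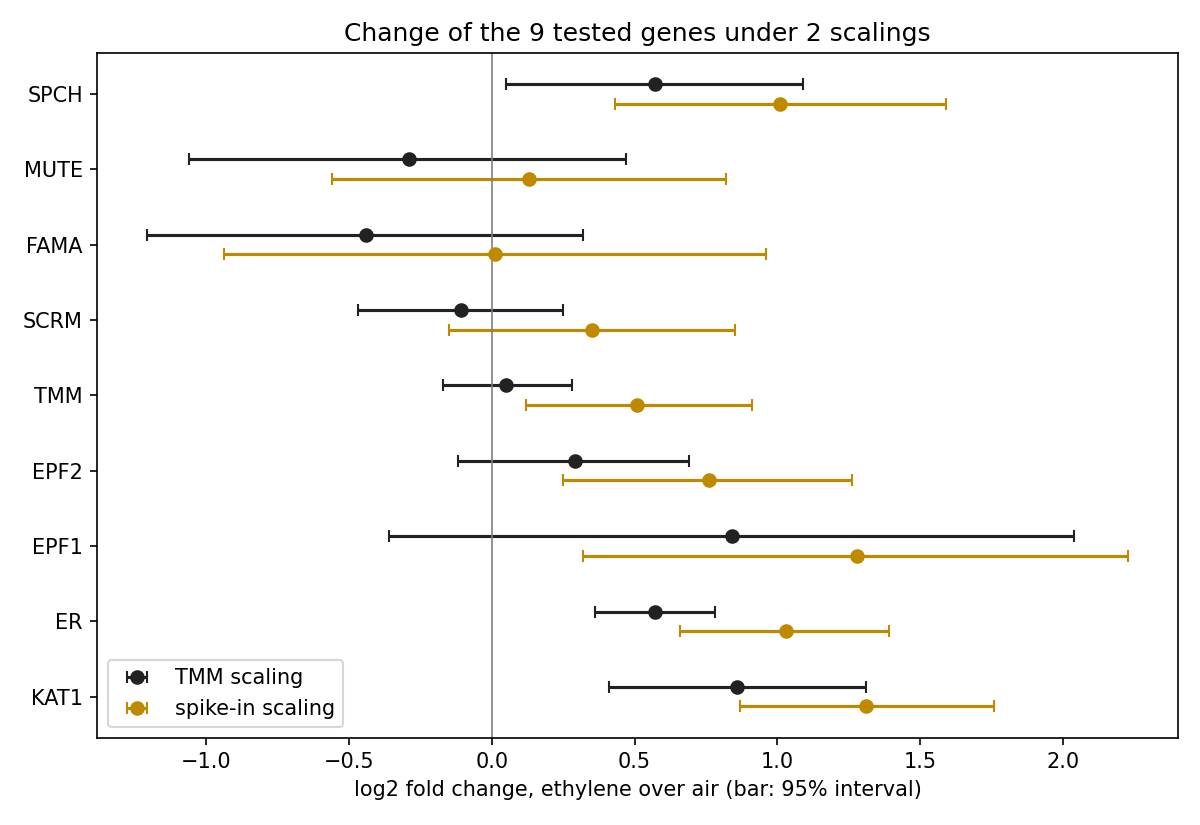
Log2 fold change of ethylene over air for the 9 tested genes, with 95% intervals, on the TMM scale (black) and with spike-in scaling (yellow). On the TMM scale the intervals of ER, KAT1 and SPCH lie above 0, and with spike-in scaling those of TMM, EPF2 and EPF1 do as well.

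Ratios between transcripts of one library do not depend on how the library is scaled. The set of 11 ratios, made of each other tested member over TMM and 3 ratios between stages of the lineage, was chosen after the levels were seen. The groups did not overlap in 6 of the 11, beside 47.7% for the levels of single loci, so the count alone does not set these ratios apart. With 3 libraries against 3, the smallest p that an exact two-sided permutation test can give is 0.1, and these 6 all had it (exact permutation p = 0.1, adjusted over the 11 ratios 0.183).

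The early and late factors of the lineage were set against each other. MUTE over SPCH was 0.452, 0.404 and 0.495 in ethylene replicates 1 to 3, against 0.762, 0.641 and 1.00 in air. FAMA over SPCH was 0.247, 0.191 and 0.152 after ethylene, against 0.524, 0.436 and 0.271 in air. Every ethylene library was below every air library in both ratios, which share SPCH as the divisor. For FAMA over SPCH the gap was small. It lay between 0.247 in ethylene replicate 1 and 0.271 in air replicate 3, which rest on 18 and 16 FAMA counts. On the log2 scale the differences were -0.81 for MUTE over SPCH and -1.04 for FAMA over SPCH, and -0.64 and -1.31 without air replicate 3.

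KAT1 over FAMA, the channel gene set against the factor that precedes it, was 16.1, 17.9 and 21.8 after ethylene and 7.23, 9.29 and 5.69 in air. The log2 difference was 1.35, and between 1.17 and 1.53 when any one library was left out. KAT1 over TMM was 0.608, 0.652 and 0.680 after ethylene and 0.408, 0.474 and 0.238 in air, a log2 difference of 0.85, or 0.56 without air replicate 3. ER over TMM was 4.18, 3.96 and 4.06 after ethylene and 3.17, 2.71 and 2.67 in air, a log2 difference of 0.52. FAMA over TMM was lower, at 0.0377, 0.0365 and 0.0312 after ethylene and 0.0564, 0.0511 and 0.0419 in air. SPCH over TMM overlapped by a hair, with a lowest ethylene value of 0.153 and a highest air value of 0.154.

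**Figure D3:**
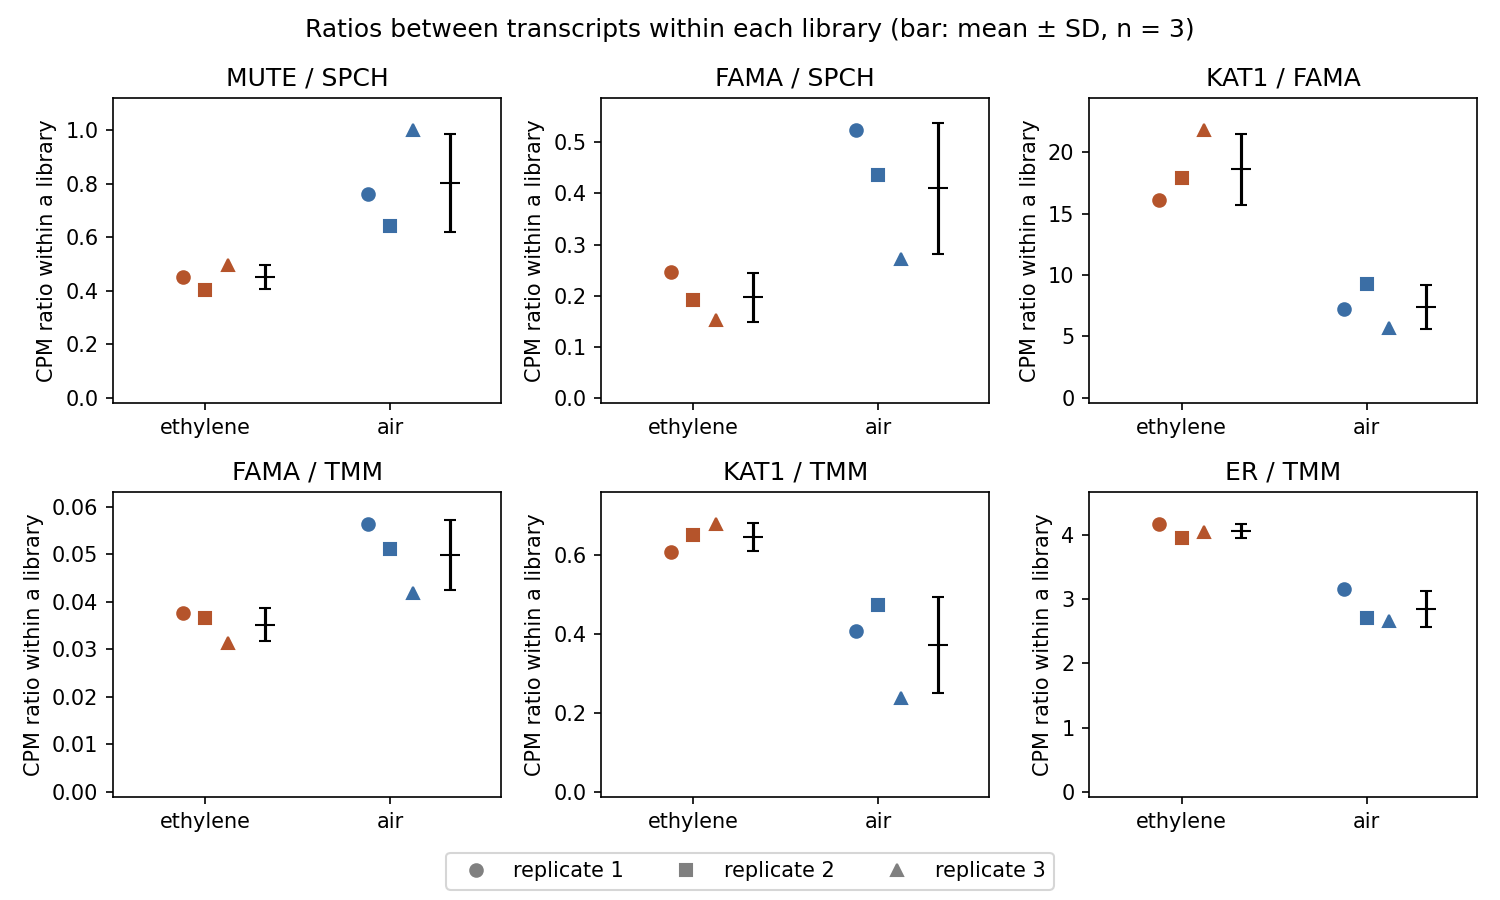
The 6 ratios between transcripts, taken within each library, in which the groups did not overlap, with ethylene libraries left, air libraries right and the mean ± SD (n = 3) as a bar. MUTE and FAMA relative to SPCH lie lower after ethylene, and KAT1 relative to FAMA lies higher, from 16.1 to 21.8 against 5.69 to 9.29 in air. Several ratios share FAMA, SPCH or TMM, and FAMA had 16 to 22 counts per library.

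Levels were compared between genes only for the 6 members with 1 transcript in the files, as CPM per kb of the longest RefSeq transcript. In the ethylene libraries ER stood first at 29.5 ± 2.61, then TMM at 15.7 ± 0.972, EPF2 at 10.1 ± 1.5, KAT1 at 6.16 ± 0.256, MUTE at 2.52 ± 0.468 and EPF1 at 1.82 ± 0.652 CPM per kb (SD, n = 3). In air the order was the same, with ER at 19.8 ± 1.47, TMM at 15.2 ± 0.649, EPF2 at 8.24 ± 0.877, KAT1 at 3.40 ± 1.01, MUTE at 3.10 ± 1.46 and EPF1 at 1.02 ± 0.663. After ethylene KAT1 was clear of MUTE in every library, as in air replicates 1 and 2 (KAT1 3.63 and 4.28, MUTE 2.35 and 2.18). Air replicate 3 alone had the reverse order, with KAT1 at 2.30 and MUTE at 4.78 CPM per kb. MUTE and EPF1 were within their spread of each other after ethylene, where EPF1 reached 2.30 and MUTE went down to 2.24 CPM per kb.

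The other 4 members have 2 or more transcripts, and such loci carried fewer counts: the median protein-coding locus had a mean of 75.2 counts per library with 1 transcript, 25.2 with 2 and 12.3 with 5. Nothing in the sources says whether reads shared by transcripts were dropped. Transcript 1 held 88.0% of the SPCH counts and transcript 2 held 96.2% of the FAMA counts. For SCRM, transcript 1 held 52.0%, transcript 6 held 29.7% and transcript 5 held 18.3%, and transcripts 2 and 4 had no count in any library. SCRM transcript 6 had 52, 32 and 42 counts after ethylene, against 28, 28 and 30 in air, and transcript 5 had 18, 22 and 24, against 30, 21 and 16.

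The authors' deposited table, which tests single transcripts, holds 11 of the 17 transcripts of these genes. In it ER has a log2 fold change of 0.57 (the authors' adjusted p = 1.61e-05) and KAT1 of 0.86 (0.000397). None of the other 9 has an adjusted p under 0.05 in the authors' deposited table, where SPCH transcript 1 stands at 0.51 with an adjusted p of 0.233. BASL is not in it.

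Beyond the 10 genes, 6 lists of 83 loci covered the rest of the pathway, guard cell function and light inputs. Of 67 loci tested, 9 were higher and 14 lower, beside 32.6% of all loci called in either direction (15.8% higher and 16.8% lower). With spike-in scaling the counts were 22 higher and 5 lower. The balance over all loci turned the same way on that scale, with 40.0% called higher and 4.63% lower.

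Among other peptides, proteases and receptors, 3 of 11 tested loci were higher and 0 lower by edgeR (at an unadjusted p under 0.05, 3 and 1; with DESeq2, 3 and 0; with spike-in scaling, 7 and 0), with a median log2 fold change of 0.63. SERK1, a co-receptor kinase of ERECTA-type receptors, rose by 0.84 ± 0.11, to 31.4 ± 1.69 CPM after ethylene against 17.5 ± 1.18 CPM in air. SDD1, a subtilisin-like protease gene that limits stomatal density, rose by 0.63 ± 0.15, and ERL2, the ERECTA relative, by 0.75 ± 0.21. These 3 had edgeR adjusted p of 0.000399, 0.00966 and 0.0205 with BH. Among all loci tested, 15.8% were called higher and 16.8% lower. The ERL2 call held without ethylene replicate 1 or air replicate 3, but not when any other library was left out (edgeR adjusted p from 0.0566 to 0.0809 with BH). SERK4, the most abundant of the list, had a log2 fold change of -0.29 ± 0.11 and was not called, nor with spike-in scaling, at 0.16. EPFL9, called STOMAGEN, whose peptide opposes EPF1 and EPF2, had 11.3, 11.9 and 13.1 CPM after ethylene, against 10.1, 11.1 and 7.78 CPM in air, and was not called (edgeR adjusted p = 0.170 with BH). Its log2 fold change was 0.33, 0.18 without air replicate 3, and 0.77 with spike-in scaling, where it was called (edgeR adjusted p = 0.00457 with BH). It was named after its values were seen.

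In the kinase cascade list, which also holds BIN2 and phosphatase genes such as BSL1, all calls were lower on the TMM scale. Among all loci tested, 16.8% were called lower and 15.8% higher. Of 9 tested loci, 4 were lower and 0 higher (at an unadjusted p under 0.05, 4 and 0; with DESeq2, 4 and 0). The MAP kinase gene MPK6 fell by 0.43 ± 0.08, to 84.6 ± 3.10 CPM after ethylene against 114 ± 6.12 CPM in air. BIN2, a GSK3-type kinase gene of brassinosteroid signalling, fell by 0.43 ± 0.09, MKK9 by 0.49 ± 0.13 and the phosphatase gene BSL1, named after its values were seen, by 0.34 ± 0.09. With spike-in scaling none of the 4 was called, at log2 fold changes of 0.02, 0.02, -0.04 and 0.12 for MPK6, BIN2, MKK9 and BSL1. Without ethylene replicate 2 neither MKK9 nor BSL1 was called (edgeR adjusted p = 0.0646 and 0.0591 with BH), and without ethylene replicate 3 BSL1 was not (0.0614). YDA, the kinase gene at the head of the cascade, had a log2 fold change of -0.04 ± 0.17, and 0.41 with spike-in scaling, neither called, and was named after its value was seen.

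In the list of other polarity genes, 1 of 5 tested loci was called, beside 32.6% of all loci tested. POLAR, whose protein shares the crescent of BASL, rose by 0.81 ± 0.14 (edgeR adjusted p = 0.00195 with BH), with 16.3, 16.1 and 14.0 CPM after ethylene, against 8.90, 8.44 and 9.15 CPM in air. Its groups were far apart and each was tight. BRXL4, the most abundant of the list, had a log2 fold change of 0.27 ± 0.14 and was not called. It was 0.13 without air replicate 3, and with spike-in scaling it was called, at 0.71 (edgeR adjusted p = 0.00249 with BH), as were 3 loci of the list in all.

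Of 12 tested regulators and cell cycle genes of the lineage, 2 were higher and 0 lower (with DESeq2, 2 and 0; at an unadjusted p under 0.05, 2 and 1), and 6 were higher and 0 lower on the spike-in scale. CDKB1;1, a cyclin-dependent kinase gene of dividing cells that also acts in guard mother cells, rose by 1.31 ± 0.19, to 22.1 ± 1.66 CPM after ethylene against 8.88 ± 2.26 CPM in air (edgeR adjusted p = 0.000577 with BH). SOL2 rose by 0.89 ± 0.27 (edgeR adjusted p = 0.0280 with BH). These 2 of 12 stand beside 15.8% of all loci called higher. SOL2 passed no longer when the transcript with the most counts replaced the sum (adjusted p = 0.0658), nor when any library but ethylene replicate 1 or air replicate 2 was left out (0.0607 to 0.0890). ATML1, an epidermal homeodomain factor gene, had a log2 fold change of -0.28 ± 0.19 and was not called. It was -0.16 without ethylene replicate 1, -0.53 and called lower without ethylene replicate 2 (edgeR adjusted p = 0.0467 with BH), and 0.17 and not called with spike-in scaling. SCAP1, a factor gene of guard cell maturation named after its values were seen, had 2.52, 4.39 and 3.44 CPM after ethylene, against 6.07, 4.75 and 5.79 CPM in air, and missed the threshold (edgeR adjusted p = 0.0584 with BH). Its log2 fold change was -0.68, and it was called lower without ethylene replicate 2 (-0.89) and without air replicate 2 (-0.80), and not with spike-in scaling (-0.24).

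Guard cell function genes that passed the test were more often lower than higher, against the direction of KAT1. Of 24 tested loci, 9 were lower and 3 higher, with a median log2 fold change of -0.40. The shares over all loci tested were 16.8% lower and 15.8% higher. The spike-in scale gave 5 lower and 5 higher loci, beside 4.63% lower and 40.0% higher over all loci. ABCB14, a malate importer gene of guard cells, fell by 1.78 ± 0.16, to 26.4 ± 2.20 CPM after ethylene against 90.5 ± 22.0 CPM in air. STP1, a hexose carrier gene, fell by 1.41 ± 0.11, and CYP86A2, a fatty acid hydroxylase gene of the cuticle, by 0.98 ± 0.09. These 3 stayed lower with spike-in scaling, at -1.34, -0.95 and -0.53. Several genes of this list, among them STP1 and CYP86A2, are also used outside guard cells.

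Ion channel genes were then set beside KAT1, chosen after their values were seen. ALMT12, an anion channel gene of stomatal closure, had 16.5, 14.2 and 11.1 CPM after ethylene, against 26.8, 26.8 and 29.1 CPM in air. It fell by 0.99 ± 0.15 (edgeR adjusted p = 0.000912 with BH) and by 0.51 with spike-in scaling. SLAC1, the slow anion channel gene, had 3.16, 4.33 and 4.66 CPM after ethylene, against 5.04, 5.41 and 6.10 CPM in air, and was not called (edgeR adjusted p = 0.154 with BH). Its log2 fold change was -0.44, -0.29 without ethylene replicate 1 and -0.01 with spike-in scaling. GORK, the outward potassium channel gene, had a log2 fold change of 1.01 ± 0.64 and was not called. Its value was 0.49 without air replicate 3 and 0.55 without ethylene replicate 1, and with spike-in scaling it was called, at 1.48 (edgeR adjusted p = 0.0286 with BH). KC1, a potassium channel gene, had a log2 fold change of -0.24 ± 0.27 and was not called (edgeR adjusted p = 0.539 with BH). SLAH3, a relative of SLAC1, had 0.710, 0.761 and 1.22 CPM after ethylene, against 2.14, 1.23 and 2.59 CPM in air. Its log2 fold change of -1.14 ± 0.40 just missed the threshold (edgeR adjusted p = 0.0526 with BH), and was -0.73 and not called with spike-in scaling. KAT2 and ALMT6 were too scarce to test. The 3 higher genes of the list, also named after their values were seen, were RBOHF, an NADPH oxidase gene, by 0.91 ± 0.17, TGG1, a myrosinase gene abundant in guard cells, by 0.82 ± 0.08, and the receptor kinase gene GHR1 by 0.72 ± 0.15. TGG1 reached 165 ± 6.95 CPM after ethylene against 93.7 ± 3.67 CPM in air.

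Among light inputs 1 of 6 tested loci was lower and 0 higher (at an unadjusted p under 0.05, 1 and 1; with DESeq2, 1 and 0), and on the spike-in scale 0 lower and 1 higher. Among all loci tested, 16.8% were called lower and 15.8% higher. The lower locus was the blue light receptor gene CRY1, which fell by 0.54 ± 0.09 and had -0.08 with spike-in scaling. The locus higher on the spike-in scale was HY5, at 1.43 (edgeR adjusted p = 0.00571 with BH). On the TMM scale HY5 had 1.00 ± 0.38 and was not called (edgeR adjusted p = 0.0716 with BH). HY5 was named after its values were seen.

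**Figure D4:**
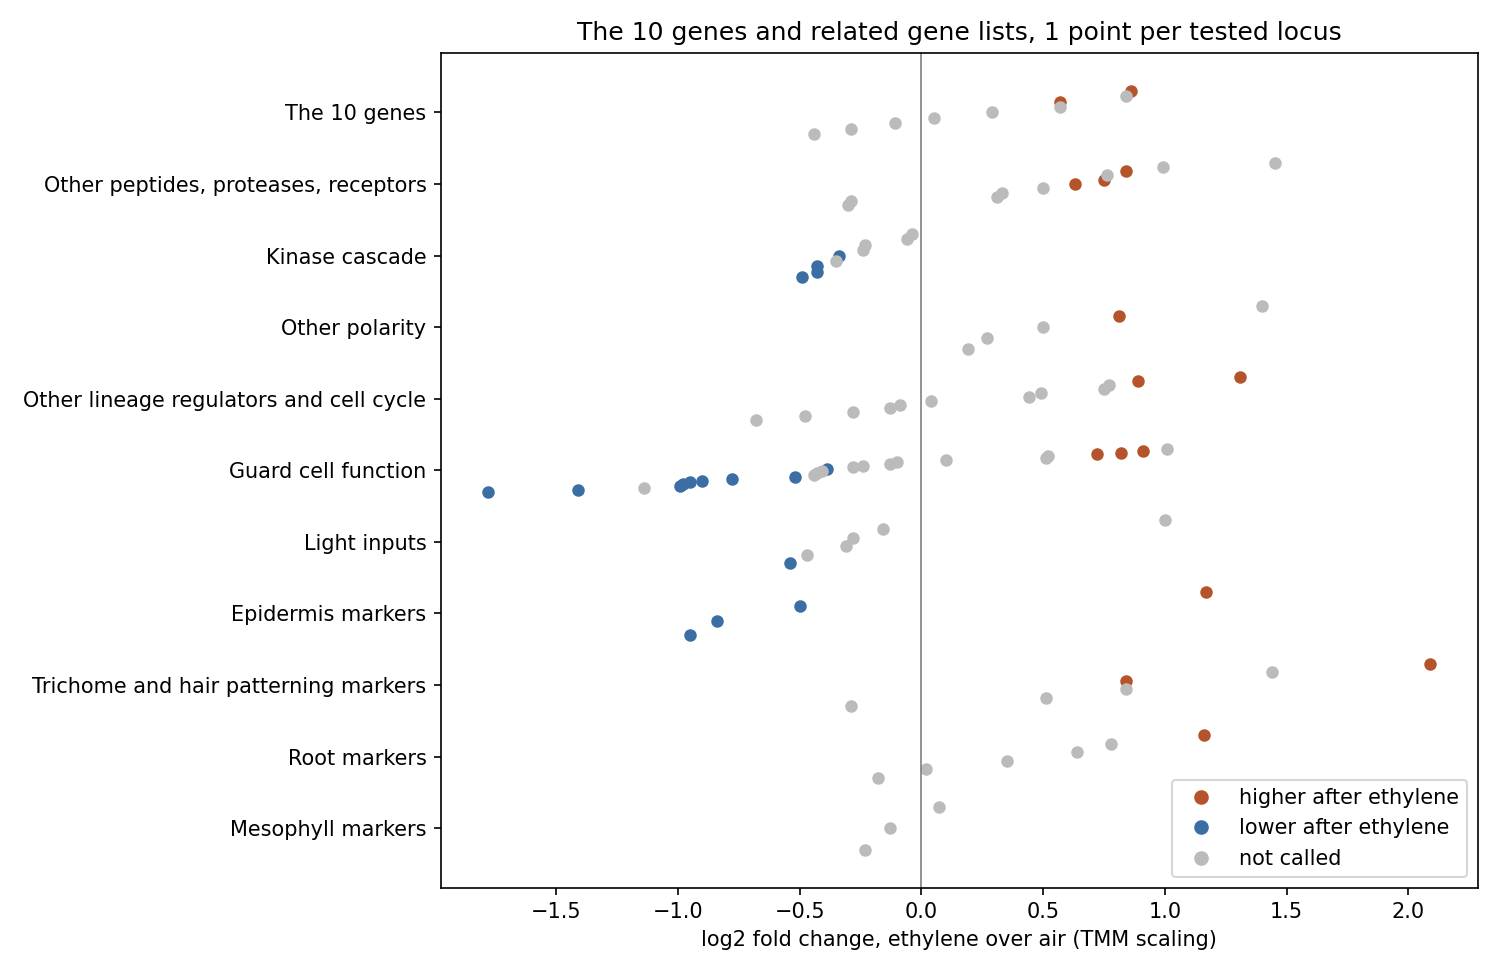
Log2 fold change of ethylene over air on the TMM scale for each tested locus of the 10 genes and of the 10 related lists, with loci called higher in red, lower in blue and not called in grey. Called genes lie on the positive side among peptides and receptors, polarity and lineage regulators, where they number 3 of 11, 1 of 5 and 2 of 12. They lie on the negative side in the kinase cascade list (4 of 9), and mostly so among guard cell function genes (of 24, 9 lower and 3 higher). Over all loci tested, 15.8% were called higher and 16.8% lower. With spike-in scaling no locus of the kinase cascade list was called, and guard cell function genes gave 5 higher and 5 lower.

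Of 19 tested markers of epidermis, trichomes and hairs, roots and mesophyll, 4 were called higher and 3 lower. The shares over all loci tested were 15.8% and 16.8%. The part of these markers in the values above was not tested. All 4 epidermis markers were called: PDF1, a protodermal gene, rose by 1.17 ± 0.09, while the wax and cuticle genes FDH and CER6 fell by 0.84 ± 0.09 and 0.95 ± 0.12, and LTP1 by 0.50 ± 0.09. With spike-in scaling FDH (-0.38) and LTP1 (-0.06) were no longer called. The summed level of the 4 ranged from 1870 to 2090 CPM after ethylene and from 2340 to 2680 CPM in air. LTP1 and FDH made up most of this sum, while PDF1 averaged 410 CPM after ethylene and 182 CPM in air. Of 6 tested trichome and hair patterning markers, 2 were higher and 0 lower (at an unadjusted p under 0.05, 3 and 0; with DESeq2, 2 and 0; with spike-in scaling, 4 and 0), and their sum with the untested GL3 ranged from 16.4 to 20.4 CPM after ethylene and from 6.18 to 11.7 CPM in air. GL1, which starts trichomes, rose by 2.09 ± 0.46 and MYB23 by 0.84 ± 0.24. The MYB23 call was lost when any library but ethylene replicate 2 or air replicate 2 was left out (edgeR adjusted p from 0.0510 to 0.0808 with BH). CPC, the most abundant of the list, had a log2 fold change of 1.44 ± 0.53 and missed the threshold (edgeR adjusted p = 0.0633 with BH). It passed with the replicate block, with no filter on low counts, with spike-in scaling (1.96), without ethylene replicate 3 (1.73) and without air replicate 2 (2.16), and was 0.96 and not called without air replicate 3.

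Of 6 root markers 1 was higher and 0 lower (at an unadjusted p under 0.05, 2 and 0; with DESeq2, 2 and 0; with spike-in scaling, 4 and 0), the root hair gene RHD6 by 1.16 ± 0.23, and their sum ranged from 5310 to 6320 CPM after ethylene and from 4780 to 6320 CPM in air. PYK10 made up nearly all of this sum, at 5210 to 6220 CPM after ethylene and 4680 to 6220 CPM in air. The sum thus says little about the other root markers. None of the 3 mesophyll markers was called by edgeR or DESeq2 (1 had an unadjusted p under 0.05, and 1 was higher with spike-in scaling). Their sum ranged from 15200 to 18200 CPM after ethylene and from 17200 to 17700 CPM in air. RBCS1A and CAB3 have near-identical relatives, so their counts are uncertain. RBCS1A had a log2 fold change of -0.23 and was called lower without ethylene replicate 1 (-0.33), without air replicate 2 (-0.29) and with no filter on low counts (-0.23).

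The summed CPM of SPCH, MUTE, FAMA, TMM, EPF1, EPF2, BASL and KAT1, the members with the most restricted known expression, was 69.1, 62.6 and 67.1 in ethylene replicates 1 to 3 and 51.9, 54.8 and 54.4 in air replicates 1 to 3. TMM and KAT1 make up most of this sum. KAT1 averaged 18.6 CPM after ethylene and 10.3 CPM in air, and TMM 28.8 and 27.8 CPM. Most of the difference in the sum is thus that of KAT1, and MUTE and FAMA had lower means after ethylene. Outside all lists, the loci whose log2 CPM followed the log2 of this sum most closely over the 6 libraries were ZF1 (Pearson r = 0.996), MPPalpha (0.994) and AT2G42910 (0.993). This is a description over 6 libraries in 2 groups, and 238 loci had r above 0.95.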

How the data were processed

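The authors deposited 1 table of read counts per transcript for each of the 6 libraries, holding 54013 plant transcripts and 92 spike-in RNAs. The sources used here name no aligner, counter, genome build or annotation, and say nothing of strand. Per the file headers, the authors' deposited table gives a log2 fold change, a p-value and an adjusted p-value per transcript. Its 6 library columns are a deposited signal equal to counts divided by 1 factor per library. A deposited list of significant transcripts, with 6 per-sample columns, was not used.

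Transcript counts were added up within each of 32833 loci, and 325 lower-case identifiers were joined to their locus. Symbols came from RefSeq (TAIR10.1, 32548 loci matched), and no coordinates are given. Changes were tested with edgeR 4.0.16 (R 4.3.3) by glmQLFTest, with TMM (trimmed mean of M-values) factors, filterByExpr (minimum count 10, minimum total 15), the group as the only term and BH adjustment over 17887 loci. The procedure was tested on simulated data. Standard errors (SE) are the log2 fold change divided by the root of F, and intervals are 95%. DESeq2 1.42.0 was an alternative, and log2 CPM for the principal components and correlations used a prior count of 2. Members and lists were chosen with earlier results of these data known. The rule for other named genes took up to 3 called loci per list with the smallest p and the one with the highest mean CPM. No replicate pair agreed within sampling noise (chi-square per degree of freedom 5.01 to 26.6).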

Additional observations from a re-analysis of the deposited data

How the results depend on the processing

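The 13 alternatives were DESeq2, other factors or filters, the transcript with the most counts, a replicate block, and leaving out each library. Of the 10 genes, ER and KAT1 were called in all 13. Others were called beside them in only 2: spike-in scaling called 6 in all, and leaving out air replicate 3 called 3. The median log2 fold change of the members tested was 0.29 with all libraries, 0.76 with spike-in scaling and 0.43 with no filter on low counts, where BASL entered, and between 0.16 and 0.37 when 1 library was left out, with 0.16 without ethylene replicate 1. Marker genes called numbered 7 of the 19 tested, beside 32.6% of all loci. With spike-in scaling they numbered 11, beside 40.0% of all loci called higher and 4.63% lower. There the log2 fold changes of MPK6 (0.02), BIN2 (0.02) and BSL1 (0.12) were positive and not called, against falls on the TMM scale, because that scaling raises the median of all loci to 0.47. With the replicate number as a block, 5574 loci and 2 of the 10 genes were called, against 5835 and 2 without it. Same-numbered libraries had correlations of 0.02, -0.06 and 0.12 of their deviations from the group means. With the names of air replicates 1 and 3 exchanged, as in the authors' deposited table, the pairs of ethylene replicates 1 and 3 had -0.13 and -0.07. These values show no sign of pairing, but 3 libraries per group are too few to exclude it. The block was run only with the numbers of the count files. The low counts of FAMA, EPF1 and BASL limit what could be detected. For the ratios and for genes named after their values were seen, the alternatives were chosen after seeing the data.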
